A study of Homo sapiens with 24 samples.

Results

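The peaks described here are stretches of RNA bound by Ago2 in 293S cells that hold a perfect 7-nucleotide match to the seed of the miR-26 family or of miR-101. Ago2 is an Argonaute, the class of protein that a miRNA steers to its targets. Members were taken from the authors' deposited peak table by its column of seed matches to 50 miRNA families, whatever the annotated region and whatever the measured value. The miR-26 seed was listed for 177 peaks in 167 genes and the miR-101 seed for 132 peaks in 122 genes. Together they made 307 of 24041 peaks, in 275 of 6088 genes, and 2 peaks held both. For comparison, 350 peaks held the let-7 seed, 224 held the miR-27 seed, and 16460 held none of the listed seeds.

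Cells of the 293S line, derived from human embryonic kidney, were either treated with sodium arsenite at 1 mM for 30 min or left untreated, and RNA crosslinked to Ago2 was recovered with an Ago2 antibody (CLIP). The 24 samples formed 6 groups of 4 replicates. They were arsenite-treated and untreated cells for mRNA CLIP, for RNA-seq, and for a further CLIP fraction, called the LO band, that served to measure miRNAs. Both deposited tables hold 1 value per peak or miRNA over all replicates, so no replicate error, depth per sample or test can be given for a peak, and the RNA-seq values were not analysed here. Each peak has 2 values from the authors, made from normalized CLIP abundance. One is the log average over both treatments, and the other is the log ratio, arsenite over untreated. Neither the log base nor the normalizer is stated, so where 0 lies is set by the authors' scaling, and no value was turned into a fold change. A change in the amount of an mRNA and a change in its Ago2 binding cannot be told apart where the normalizer is unknown.

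A miRNA guides Argonaute by pairing of its bases 2 to 8, the seed, with a complementary stretch of the target RNA, most often in the 3'UTR, and the bound protein lowers translation and shortens the life of that mRNA. The miR-26 miRNAs come from hairpins in introns of the CTDSP phosphatase genes and are known as restraints on the cell cycle. miR-101 is known above all for repressing EZH2, the histone methyltransferase of Polycomb repressive complex 2 (PRC2). Arsenite binds protein thiols, and cells answer it by halting the start of translation and gathering mRNAs in stress granules.

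The mature sequences are shown because they define the members. They are RefSeq's (GRCh38.p14 table), 5′ to 3′, with the seed in capitals.
hsa-miR-26a-5p: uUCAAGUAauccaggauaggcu
hsa-miR-26b-5p: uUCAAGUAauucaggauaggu
hsa-miR-1297: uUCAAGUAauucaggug
hsa-miR-4465: cUCAAGUAgucugaccagggga
hsa-miR-101-3p: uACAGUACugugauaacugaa

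The first 4 sequences carry one seed, UCAAGUA, and the table lists them as one family, whose match in a target reads UACUUGA. miR-101-3p stands alone with the seed ACAGUAC and the match GUACUGU. The 2 matches share no stretch at either end longer than 1 base, so sites for both overlap by at most 1 base. A peak listed for miR-26 cannot be assigned to one miRNA of the family by its seed. The peaks' own sequences are not shown.

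None of the Ago2-bound miRNAs of the 2 families passed the authors' test between treatments. In the authors' deposited table, miR-26a-5p had a mean of 329631 normalized reads in arsenite-treated cells and 307729 in untreated cells, a log2 ratio of 0.10 with a DESeq p of 0.634 and an adjusted p of 1. In the same authors' deposited table miR-26b-5p, the minor member, had 31740 in arsenite-treated cells and 28078 in untreated cells, with a log2 ratio of 0.18, a DESeq p of 0.418 and an adjusted p of 1. The authors' deposited table gave miR-101-3p 426851 in arsenite-treated cells and 474411 in untreated cells, with a log2 ratio of −0.15, a DESeq p of 0.532 and an adjusted p of 1. By base mean, miR-101-3p ranked 11 and miR-26a-5p ranked 14 of 1213 entries. Their shares of the summed means were 2.52% and 1.78%.

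The other bearers of the miR-26 seed were rare or not listed. In the authors' deposited table miR-1297 had a mean of 11.9 in arsenite-treated cells and 23.3 in untreated cells, and its log2 ratio of −0.97 carried a DESeq p of 0.504 and an adjusted p of 1. miR-4465 was not among the entries. The summed miR-26 means came to 361383 in arsenite-treated cells and 335831 in untreated cells. Of the 1213 entries 0% passed an adjusted p of 0.05 by the authors' DESeq test, and 24, or 1.98%, had an unadjusted p under 0.05. None of the miR-26 or miR-101 entries was among the 24. The passenger arm miR-101-5p had 1116 in arsenite-treated cells and 1092 in untreated cells.

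Most peaks of both families had a higher normalized CLIP abundance in arsenite-treated than in untreated cells. The log ratio was above 0 for 161 of the 177 miR-26 peaks, or 91.0% (95% Wilson interval 85.8% to 94.4%). For miR-101 it was above 0 for 121 of 132 peaks, or 91.7% (85.7% to 95.3%). The share over both families was 91.2%, with 280 of 307 peaks, against 70.3% of all 24041 peaks. Of the 7581 peaks with any listed seed, members included, 79.2% were above 0. These intervals cover the number of peaks only, since peaks are not replicates of the treatment.

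The middle of the distributions differed in the same way. The median log ratio was 1.53 for miR-26 peaks, with quartiles at 0.83 and 2.17 and a range of −1.86 to 3.76. For miR-101 peaks it was 1.44, with quartiles at 0.75 and 2.05 and a range of −1.36 to 3.66. All peaks had a median of 0.65, peaks with any listed seed one of 1.06, and peaks with no listed seed one of 0.48. Because the zero point is not known, the all-peak median gives a second yardstick. Above it lay 140 miR-26 peaks (79.1%) and 105 miR-101 peaks (79.5%).

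Among the 50 listed families, miR-26 took rank 8 and miR-101 rank 9 by median log ratio, next to the miR-130a-3p family at 1.55 on one side and miR-33 at 1.43 on the other. By number of peaks they took ranks 20 and 28. The let-7 peaks had a median of 1.42 with 86.3% above 0, and the miR-27 peaks a median of 1.20 with 83.5% above 0. These differences between families were not tested.

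**Figure D1:**
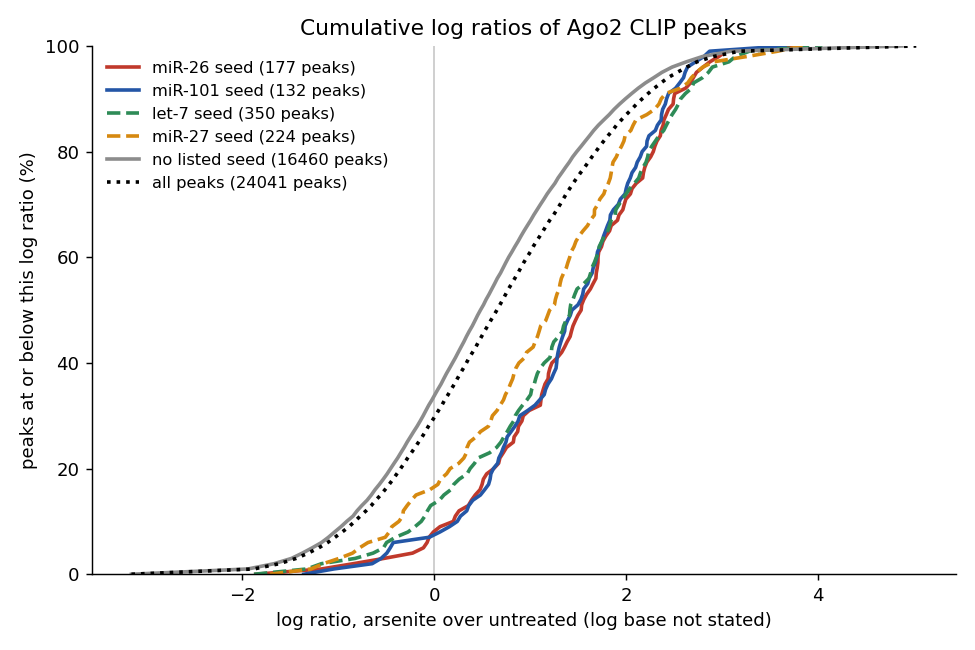
Cumulative percentage of peaks (vertical axis) at or below each log ratio of arsenite over untreated (horizontal axis) for 6 groups of peaks. The miR-26 and miR-101 curves lie nearly on each other, with medians of 1.53 and 1.44, to the right of peaks with no listed seed at 0.48.

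In each quartile of log average, both families had a higher median log ratio than peaks with no listed seed. Across the quartiles of log average of all peaks, lowest to highest, the median log ratio of miR-26 peaks was 1.15, 1.70, 1.46 and 1.56. For miR-101 peaks the 4 medians were 1.27, 1.42, 1.66 and 1.40. Peaks with no listed seed had 0.49, 0.66, 0.46 and 0.33. The members themselves were close to all peaks in log average and length. Their median log average was −5.27 for miR-26 and −5.39 for miR-101, against −5.18 for all peaks, and their median lengths were 47 and 52 nucleotides, against 50.

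**Figure D2:**
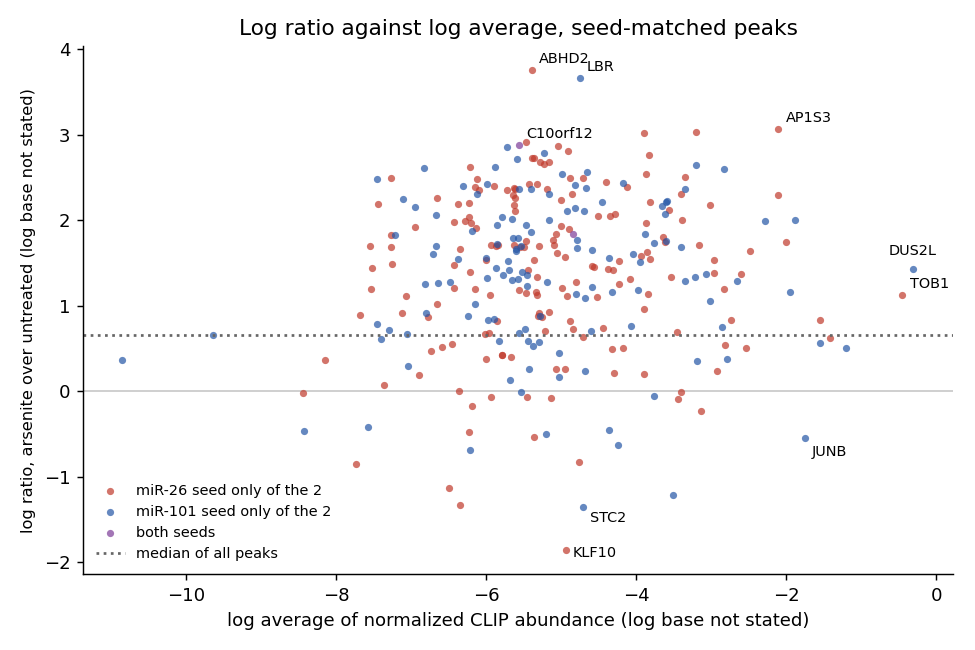
Log ratio of arsenite over untreated (vertical axis) against log average (horizontal axis) for the 307 member peaks, coloured by seed. Points above the dotted line exceed the all-peak median of 0.65, and the highest log averages, those of DUS2L and TOB1, go with middling log ratios of 1.43 and 1.12.

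Both families sat largely in 3'UTRs. Of the miR-26 peaks 137 (77.4%) lay there, 32 in coding sequence (CDS), 4 in 5'UTRs and 4 in noncoding exons. miR-101 peaks had 113 (85.6%) in 3'UTRs, 10 in CDS, 3 in 5'UTRs and 6 in noncoding exons. The 3'UTR held 51.0% of all peaks, 67.4% of miR-27 peaks and 47.1% of let-7 peaks. Within 3'UTRs alone the median log ratios were 1.53 for miR-26 and 1.44 for miR-101. There, peaks with any listed seed, members included, had 1.20 and peaks with no listed seed 0.68.

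Within 3'UTRs, 124 of the 137 miR-26 peaks and 105 of the 113 miR-101 peaks had log ratios above 0, beside 76.2% of all 3'UTR peaks. In CDS, 31 of 32 and 10 of 10 did, with medians of 1.67 and 1.86, beside 68.4% and a median of 0.58 for all CDS peaks. The 7 peaks in 5'UTRs were all above 0, beside 60.8% of all 5'UTR peaks. For miR-26 they lay in ZHX1 (2.42), IVNS1ABP (2.40), TULP4 (1.02) and KIAA0754 (0.83). The miR-101 ones included HIST2H2BE (2.37) and HEXIM1 (2.02), which encode a histone H2B and an inhibitor of the elongation factor P-TEFb.

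Noncoding exons stood apart from the coding transcripts. Only 2 of 4 miR-26 peaks and 3 of 6 miR-101 peaks there were above 0, with medians of −0.33 and −0.03, near the 42.6% and the median of −0.18 over all noncoding exon peaks. Of the 6 miR-101 peaks, 4 lay in a single noncoding RNA, some of them overlapping. MALAT1, an abundant nuclear RNA, held 2 miR-26 peaks at −1.13 and 0.19 and 1 miR-101 peak at −0.50, while its 105 peaks had a median of −0.81. SNHG5, a small nucleolar RNA host, had the highest noncoding value, 1.21.

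**Figure D3:**
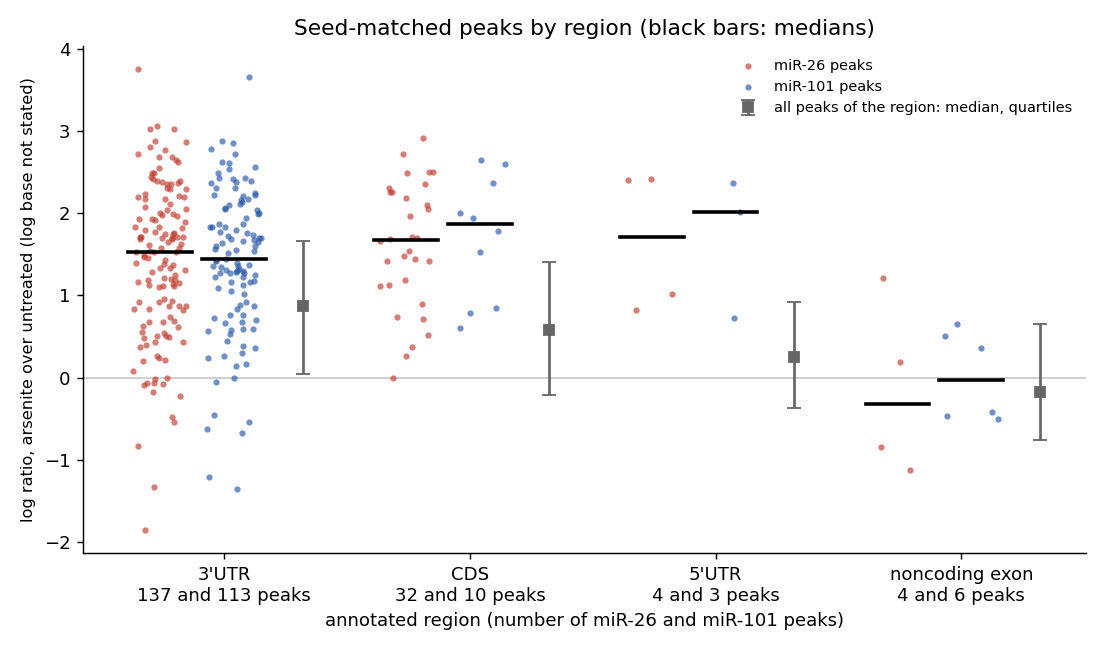
Log ratio of arsenite over untreated (vertical axis) for each miR-26 and miR-101 peak by annotated region (horizontal axis), with black bars at the medians and grey squares with quartile bars for all peaks of the region. Medians are 1.44 to 2.02 in mRNA regions and below 0 in noncoding exons.

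Peaks were next compared with their neighbours, which holds the gene fixed. For each gene and region with both kinds, the median log ratio of its peaks without any listed seed was subtracted from that of its seed-matched peaks. The difference had a median of 0.47 over 106 gene regions for miR-26 (quartiles −0.32 and 1.10), and it was above 0 in 71 of them (67.0%). For miR-101 it had a median of 0.35 over 75 gene regions (quartiles −0.28 and 1.26), with 52 above 0 (69.3%). Without peaks that match another listed family the median was 0.45 for miR-26 and 0.19 for miR-101. In gene regions with at least 3 seedless peaks it was 0.71 for miR-26 and 0.28 for miR-101. The same difference for peaks of any listed seed had a median of 0.25 with 60.2% above 0, for let-7 0.58 with 69.7%, and for miR-27 0.31 with 56.6%.

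These differences are smaller than the gap between all member peaks and all seedless peaks. In the genes compared, the seedless peaks themselves had a median of 0.98 for both families. In 3'UTRs the median difference was 0.45 for miR-26, over 83 genes, and 0.42 for miR-101, over 63 genes. In CDS it was 0.75 for miR-26, over 20 genes, and 0.14 for miR-101, over 8 genes. The few 5'UTR comparisons went the other way, at −1.89 in the 1 gene for miR-26 and a median of −0.71 over 2 genes for miR-101, so all 3 lay below their seedless neighbours.

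Single genes showed wide differences in both directions. Among genes with at least 3 seedless peaks in the same region, LARP1 gave the largest miR-26 difference. This RNA-binding protein controls mRNAs of the translation machinery, and its 3'UTR peak with the miR-26 seed stood at 2.35, against a median of 0.24 over 27 seedless peaks. Other large differences were those of ATP13A3, a P-type ATPase, and the nuclear import receptor KPNA6. ATP13A3 had 2.50 against 0.44 over 3 seedless CDS peaks. Its member ranked only 5 of the gene's 19 peaks, whose median was 1.76, and lay at percentile 8.2 of log average. KPNA6 had 2.29 against 0.38 over 9 seedless 3'UTR peaks.

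For miR-101 the largest differences came from FAM84B, at 2.79 against 0.04 over 9 seedless peaks, and H2AFV, a histone H2A.Z variant, at 2.42 against −0.13 over 5. BAZ2A, a nucleolar chromatin remodelling subunit, stood at 2.04 against −0.20. The transcription factor SOX11, with 32 seedless 3'UTR peaks at a median of 0.27, had its miR-101 peak at 2.40.

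The reverse also occurred. TMEM64 had its miR-26 peak at −0.08, against 1.78 for 3 seedless peaks. The forkhead factor FOXJ3 followed at −0.54 against 1.12, then the lincRNA model TCONS_00017361 at −0.85 against 0.46. CDK6, the G1 cyclin-dependent kinase, stood at 0.07 against 1.08. A seedless CDK6 peak at 0.63 overlaps that member, since seedless peaks that overlap a member were kept. By log average the CDK6 and TCONS_00017361 members lay low, at percentiles 7.2 and 4.5 of all peaks. The miR-101 peaks lowest against their neighbours included those of the deubiquitinase OTUD3 at 0.17 against 1.87, the mitotic kinase NEK7 at −0.05, the median of its 2 such peaks, against 1.19, and the nucleic acid-binding protein PURB at 1.36 against 2.47.

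**Figure D4:**
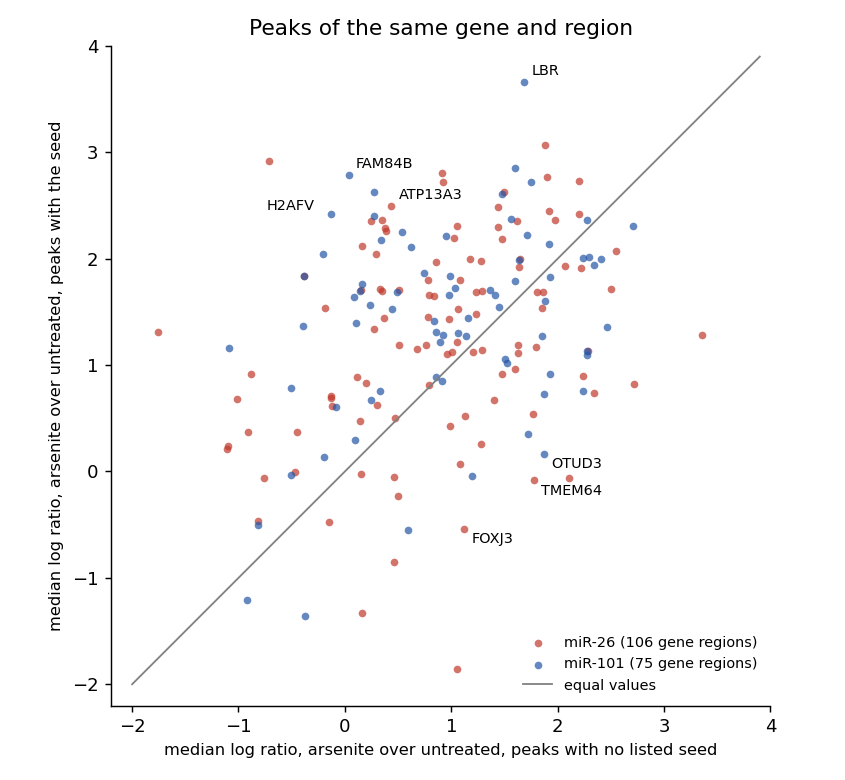
Median log ratio of peaks with the seed (vertical axis) against that of peaks with no listed seed in the same gene and region (horizontal axis), 1 point per gene region. Points above the diagonal, 71 of 106 for miR-26 and 52 of 75 for miR-101, have the higher value in the seed-matched peaks.

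In genes with at least 3 peaks, the member had the highest log ratio of its gene for 26 of 122 miR-26 peaks (21.3%) and 23 of 94 miR-101 peaks (24.5%). The mean of 1 divided by the number of peaks of the gene was 16.8% and 13.6% for these peaks. These ranks pool all regions of a gene, so region is not held fixed here. A further 29 miR-26 peaks and 24 miR-101 peaks were the only peak of their gene, so they have no neighbour to be set against.

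Named peaks are the highest and lowest log ratios among members in the upper 75% of log averages. The highest miR-26 value was 3.76, in the 3'UTR of ABHD2, a serine hydrolase, at chr15:89740093-89740147 on hg19, in a peak of 55 nucleotides that also matches the miR-17 family. The other peak of ABHD2 had the gene's lowest value, −1.27. AP1S3, a clathrin adaptor subunit, followed at 3.07 (chr2:224623402-224623446), then INHBB, the activin and inhibin beta-B chain, at 3.03, and the HSP90 co-chaperone CHORDC1 at 3.02. PAPD7, a noncanonical poly(A) polymerase, reached 2.92 in its CDS while its 10 peaks had a median of −0.30. C10orf12 stood at 2.88, CNOT4, a ubiquitin ligase that associates with the CCR4-NOT deadenylase, at 2.81, and the carbonic anhydrase CA2 at 2.77.

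The lowest miR-26 value was −1.86, in KLF10, a TGF-beta-inducible transcription factor whose 5 peaks reached up to 2.19. MFHAS1 had −0.83, close to its only other peak at −1.07. FOXJ3 had −0.54 and the lipid kinase PIP4K2B −0.48, each the lowest peak of its gene. MKNK2, a kinase of the cap-binding protein eIF4E, stood at −0.23 among 25 peaks with a median of 0.66. METAP2 (−0.18), HOXA5 (−0.09) and TMEM64 (−0.08) lay just under 0. In all, 16 miR-26 peaks were not above 0, of which 13 were in 3'UTRs.

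Among miR-101 peaks, LBR had the highest value. It encodes the lamin B receptor of the inner nuclear membrane, and its peak of 29 nucleotides at chr1:225590697-225590725, which also matches miR-27, stood at 3.66 while its 17 peaks had a median of 1.68. The histone chaperone NAP1L1 followed C10orf12 at 2.86, then FAM84B at 2.79 and KCTD12, an auxiliary subunit of GABA-B receptors, at 2.72. ING1, a chromatin-binding tumour suppressor, had 2.65 in its CDS and no other peak. STMN1, which destabilizes microtubules, had 2.63, and IFNGR2, a chain of the interferon gamma receptor, had 2.60 in its CDS.

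The lowest miR-101 values were −1.36 in STC2, a secreted stanniocalcin, and −1.21 in NAT8L, the enzyme that makes N-acetylaspartate. STC2's 8 peaks reached up to 1.76, whereas NAT8L's 44 peaks had a median of −0.98, so its member lies near the middle of its gene. NEK7 (−0.68), the Elongator-associated KTI12 (−0.62), the transcription factor JUNB (−0.55), MALAT1 (−0.50), C7orf49 (−0.45) and KCTD2 (−0.06) made up the rest. Of the 11 miR-101 peaks not above 0, 8 were in 3'UTRs and 3 in noncoding exons.

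**Figure D5:**
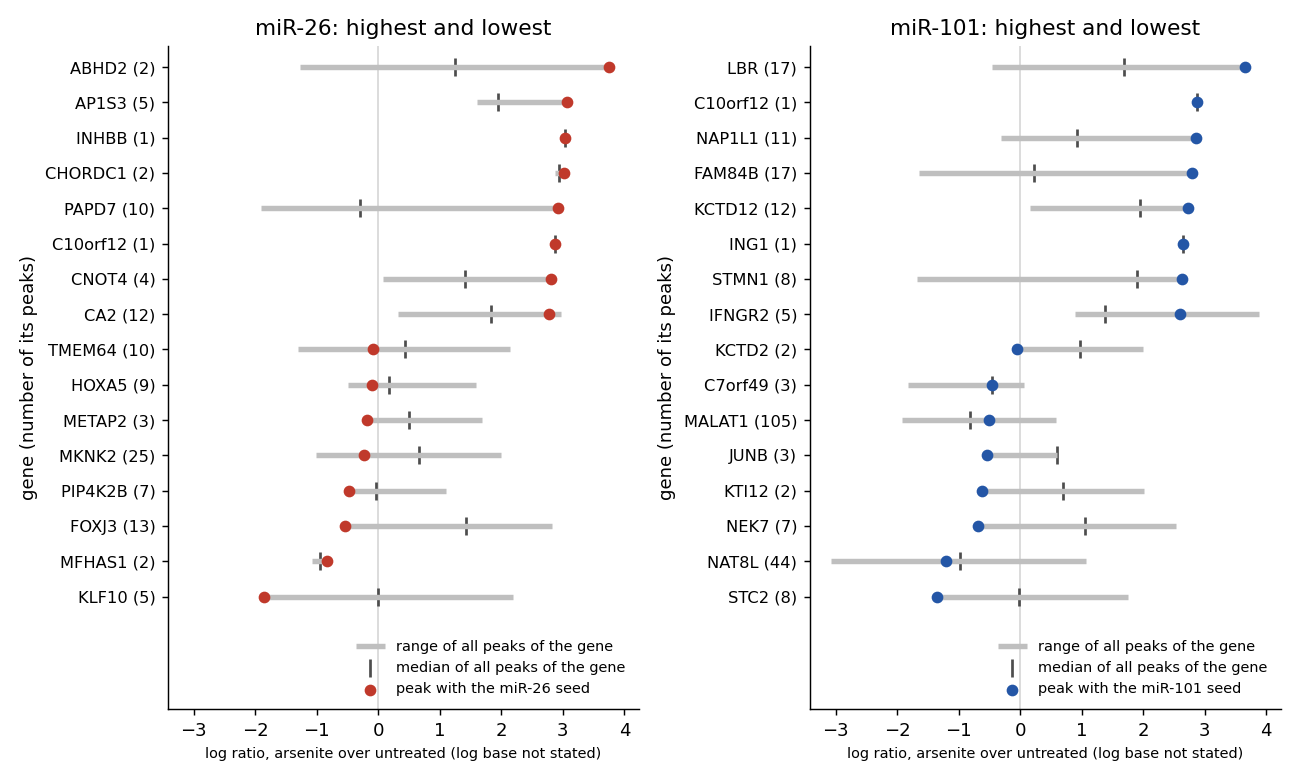
Log ratio of arsenite over untreated (horizontal axis) of the 8 highest and 8 lowest named peaks of each family (coloured points), with a grey bar for the range and a tick for the median of all peaks of the gene, whose number stands in brackets. LBR and PAPD7 show members at the top of a wide range, and NAT8L one near its gene's median of −0.98.

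Of the 5 members of highest log average in each family, AP1S3 was the only one also among the 8 highest log ratios named. By log average the top miR-26 peaks were those of TOB1, an antiproliferative protein that recruits deadenylases (log average −0.45, log ratio 1.12), the TEAD cofactor VGLL4 (−1.42 and 0.62), CDK5R1, the activator of the neuronal kinase CDK5 (−1.55 and 0.83), the death-domain adaptor CRADD (−1.995 and 1.74), and AP1S3 (−2.10 and 3.07). For miR-101 they were DUS2L, a tRNA dihydrouridine synthase (−0.30 and 1.43), the lincRNA model TCONS_00006467 (−1.20 and 0.50), SOWAHA (−1.55 and 0.56), JUNB (−1.75 and −0.55), and the lipid kinase PIP5K1C (−1.88 and 2.005). Of these 10 peaks, JUNB alone had a log ratio under 0.

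Many members also matched another listed family. The miR-26 seed was the only listed one in 127 peaks, with a median log ratio of 1.49 and 116 above 0. With 1 other family the median was 1.66 over 39 peaks, and with at least 2 it was 1.65 over 11 peaks. For miR-101 the corresponding medians were 1.33 over 77 peaks, 1.72 over 39 and 1.37 over 16. The 39 miR-101 peaks with 1 other family were all above 0, against 68 of the 77 with none and 14 of the 16 with at least 2. For miR-26, 34 of the 39 peaks with 1 other family and all 11 with at least 2 were above 0. Of all peaks, 70.3% were above 0.

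miR-27 was the most frequent companion of miR-101. Its seed match ACUGUGA was listed in 16 of the 132 miR-101 peaks (12.1%), against 0.932% of all peaks, whereas no other family was listed in more than 5. The matches GUACUGU and ACUGUGA share 5 bases, so that the 9-base stretch GUACUGUGA holds both. How many of the 16 peaks hold that stretch was not read, since the peaks' bases were not used here. The 16 peaks had a median of 1.35 with 15 above 0, and the 116 other miR-101 peaks a median of 1.52 with 106 above 0. For miR-26 the most frequent companions, the miR-17 and miR-30 families, were listed in 5 peaks each, or 2.82% of miR-26 peaks. Of all peaks, 2.98% held the miR-17 family seed and 1.39% the miR-30 seed, so the miR-17 share was near that of all peaks.

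Peaks with both seeds lay in 2 genes. In C10orf12, which encodes a PRC2-associated protein, the 3'UTR peak at chr10:98745232-98745283 is the gene's only one, matches no further listed family, and had a log ratio of 2.88. DEPDC1B, a DEP-domain protein, had 1.84 at chr5:59893140-59893190, in a peak that also matches miR-27 and miR-194, while its 5 peaks had a median of 0.21. A further 12 genes held both seeds in separate peaks. Among all 14 genes, 13 had every member peak above 0, and MALAT1 was the exception. Of all 307 member peaks, 91.2% were above 0.

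Where both seeds lay in separate peaks of a 3'UTR, values could be close or far apart. MCL1, the BCL2-family survival factor, had its miR-26 peak at 1.53 and its miR-101 peak at 1.30, with 96 nucleotides between them, in a gene of 40 peaks with a median of 1.08. RCN2, an EF-hand protein of the endoplasmic reticulum, had 1.43 and 1.66, with 1 nucleotide between. ZNF217, a zinc finger transcription factor, had 2.45 for miR-26 and 2.14 for miR-101. In LARP1 they differed, with 2.35 for miR-26 and 0.67 for miR-101, and in AP1S3 the values were 3.07 and 1.60. ASCC3, a helicase of ribosome rescue, had the opposite order, 0.92 for miR-26 and 2.61 for miR-101.

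In all, 28 genes held at least 2 member peaks, and in 11 of them such peaks overlapped. The 22 member peaks concerned may not be separate sites, which was not checked since the peaks' bases were not read. CHORDC1 had non-overlapping miR-26 peaks at 3.02 and 2.87. DDX6, the decapping-associated helicase of P-bodies, had 1.19 and 1.66 in miR-26 peaks. NEK7 had miR-101 peaks on both sides of 0, at −0.68 and 0.59. The overlapping miR-26 peaks of HOXA5 were at −0.09 and −0.01.

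Genes known from the literature as targets, listed from textbook knowledge, held few of the members. Of 30 listed miR-26 targets, 21 had a peak of any kind, and 4 had a peak with the miR-26 seed. GSK3B, a kinase of Wnt and insulin signalling, had 2.36, the G1/S cyclin CCNE1 1.65, the cyclin CCND2 1.12, and CDK6 0.07. All 103 peaks of the list had a median of 1.37 and 90.3% above 0, beside 0.65 and 70.3% over all peaks. Only 4 of the 103 held the miR-26 seed, so these are not values of miR-26 sites. Regions were not matched in this comparison.

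Of 27 listed miR-101 targets, 19 had peaks, and 8 of their peaks held the miR-101 seed. STMN1 had 2.63, EZH2 2.38, the amyloid precursor APP 2.31, ATP5B, the catalytic beta subunit of ATP synthase, 2.06, the MAP kinase phosphatase DUSP1 1.37, MCL1 1.30, the autophagy protease ATG4D 1.29, and the polyglutamine protein ATXN1 1.09. The 116 peaks of that list, most of them without the miR-101 seed, had a median of 1.04, with 80.2% above 0, beside the same all-peak values.

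The EZH2 member was the gene's only 3'UTR peak, so it could be set only against peaks of other regions. Over all peaks the median log ratio was 0.88 in 3'UTRs, 0.58 in CDS and 0.25 in 5'UTRs. The miR-101 peak in the 3'UTR, 42 nucleotides at chr7:148504611-148504652, had a log ratio of 2.38 and the highest log average of the gene, −4.66. A CDS peak, which holds another listed seed, had −1.28 and the 5'UTR peaks 0.44 and 0.05. No miR-26 seed was listed for EZH2. ATP5B had a like pattern of log ratios. Its only 3'UTR peak, which also matches miR-185, had 2.06, and its CDS peaks had −2.08, −0.62, −0.55 and −0.19. Most of those CDS peaks hold another listed seed. Unlike in EZH2, the member did not have the gene's highest log average, with −6.66 against −6.29 in a CDS peak. APP differed, since its member at 2.31 ranked 6 of 19 peaks and seedless neighbours reached 3.04.

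Of the 10 PRC2 genes listed, 9 had peaks, 54 in all, with a median of 1.12 and 81.5% above 0, beside 0.65 and 70.3% over all peaks. Members were EZH2's peak and 1 in RBBP7, a histone-binding subunit, at 1.64. Enzymes of DNA methylation and demethylation had 15 peaks in 5 of 7 genes, and none held either seed. Their median was 1.08 with 73.3% above 0, beside the same 0.65 and 70.3%. The genes differed, with medians of 2.65 for TDG, 1.37 for TET3, 0.30 for DNMT1, −0.19 for DNMT3A and −0.43 for TET1. The terminal uridylyltransferases and LIN28 proteins, which govern let-7 maturation, had 3 peaks in 2 of 4 genes, at a median of 1.72, and the host genes of the miR-26 and miR-101 hairpins had 6 peaks in 2 of 4 genes, at a median of −0.09, beside 0.65 over all peaks. Neither seed was listed in those peaks.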

How the data were processed

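The authors' deposited peak table gives positions on hg19, region, seed matches, and for each peak the log average and log ratio of its CLIP abundance, used as score values. The peak caller, log base and normalizer were not given in the sources used here. Coordinates are as deposited, with no statement whether a start is counted from 0 or 1. Length is end minus start plus 1. The authors' deposited miRNA table (miRBase names, per the file headers) holds means of reads divided by size factors (signal values), their ratio, its log2 and DESeq p-values. TopHat, DESeq and Bowtie 0.12.8 are named, without a role, in the submitters' processing notes. Neither table holds values of single samples, so the description uses medians, counts and Wilson intervals (Python 3.11.15, pandas 2.3.3, scipy 1.17.1), and depth is unknown. Genes were named as the 8 highest and lowest log ratios per family among log averages in the upper 75%, the 5 highest log averages, peaks with both seeds, listed genes, and the 4 largest and smallest within-gene differences. The 5'UTR, noncoding and multi-peak examples were chosen after their values were seen. Members and lists were chosen with earlier results of these data known. The scripts recovered known answers on simulated data. Some genes that the naming rule selects are not reported here.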

Additional observations from a re-analysis of the deposited data

How the results depend on the processing

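No paired analysis was possible because neither table holds replicate values; leaving out each replicate and the replicate block were not run for the same reason. Over 12 results and 74 alternatives no direction was reversed, all 32 alternative medians of log ratios stayed above 0, and 15 values moved beyond their interval over peaks. With log ratios centred on the median of all peaks, the medians became 0.88 (miR-26), 0.78 (miR-101), 0.84 (either) and 1.70 (both seeds), and 79.1%, 79.5% and 79.2% of miR-26, miR-101 and combined peaks were above 0, by construction of the new zero point. With CDS peaks only, the miR-101 and combined medians were 1.86 and 1.70, the shares above 0 were 96.9% (miR-26), 100% (miR-101) and 97.6% (either), and the within-gene differences were 0.75 (miR-26) and 0.14 (miR-101). Without peaks that match another listed family the miR-101 within-gene difference was 0.19. Here the cause was not tested, beyond the smaller numbers of peaks. Peaks with both seeds have no CDS value. Leaving out miR-101 peaks that match miR-27, an alternative chosen after seeing the data, gave a median of 1.52. Depth per peak is unknown, so a log ratio near 0 in a peak of low log average cannot be told from one set by few reads.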

Other observations

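The miR-101 seed match and that of miR-194, CUGUUAC, share 4 bases end to start, and 2 miR-101 peaks matched miR-194, against 50 miR-194 peaks in all. The miR-26 seed occurred beside seeds of 27 of the 49 other listed families and the miR-101 seed beside 32 of 49, most of them in 1 to 3 peaks each.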
